A study of Homo sapiens with 10 samples.

Results

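The expressed long non-coding RNAs (lncRNAs) of EA.hy926 and HMEC-1, a pair of immortalized human cell lines with endothelial traits, were followed across 10 RNA-seq libraries. A gene was taken when GENCODE release 44 types it as lncRNA and its mean level, as a count over the column sum scaled to 1e+06 counts (CPM), was at least 10 over the 5 libraries of EA.hy926 or over the 5 of HMEC-1. Of 14011 lncRNA genes matched in a table of 60448 genes, 147 (1.05%) met this limit, with 2 further genes left out by the rule. The limit was met in both lines by 72 of them, in EA.hy926 alone by 54 and in HMEC-1 alone by 21. With TMM-scaled library sizes (trimmed mean of M-values) the split was 73, 62 and 14. The genes were thus chosen by their mean levels in these same libraries, so a lncRNA at the limit in 1 line only was bound to be higher there, and its difference is given as a description without a p-value.

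Both lines were sequenced untreated, with 5 replicates each. EA.hy926 is a hybrid made by fusing umbilical vein endothelial cells with the lung carcinoma line A549, and was grown in Advanced DMEM with fetal bovine serum. HMEC-1 is a dermal microvascular line immortalized with the SV40 large T antigen, and was grown in MCDB 131 medium with more serum, epidermal growth factor and hydrocortisone. Each line was grown in its own medium, so line and medium cannot be told apart. The study's methods call the replicates of each line independent and biological. The labels do not say how they were grown, and p-values measure the spread between these libraries. The mRNA was captured by its poly(A) tail, so lncRNAs without a tail were sampled poorly at best.

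LncRNAs are transcripts longer than typical small RNAs that carry no long conserved reading frame. Most are spliced and polyadenylated like mRNAs, but many stay in the nucleus and are turned over by the nuclear RNA exosome. Some act as RNA molecules, for example as scaffolds of nuclear bodies or as decoys for RNA-binding proteins and miRNAs, some mainly serve as hosts from whose introns small nucleolar RNAs (snoRNAs) or miRNAs are cut, and for many the act of transcription next to a protein-coding gene is the best studied property. In endothelial cells, MALAT1, SENCR and MIR503HG are among the better known members.

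Libraries held 34846046 to 39899324 counts in EA.hy926 against 33391640 to 43877224 in HMEC-1. All 147 lncRNAs passed the filter on low counts and were among the 16310 genes tested. Levels below are CPM scaled by the trimmed mean of M-values (TMM) unless stated, log2FC is EA.hy926 over HMEC-1, and a gene was called at an adjusted p under 0.05 (edgeR quasi-likelihood test, Benjamini-Hochberg over all genes tested) with an absolute log2FC over 1. As a check of the labels, 14 of 15 endothelial marker genes lay at 10 CPM or more in each line. Their summed level ran from 5900 to 6630 CPM in EA.hy926 against 2040 to 2100 CPM in HMEC-1, with 10 called higher and 1 lower in EA.hy926. Of 10 epithelial markers, 3 were at 10 CPM or more in each line, with summed levels of 1270 to 1390 CPM in EA.hy926 against 429 to 491 CPM in HMEC-1. Of the 7 epithelial markers tested, 2 were called higher in EA.hy926 (KRT8 and EPCAM) and 3 lower (KRT19, CLDN4 and CLDN7). Of 9 fibroblast and mural markers, 1 was at 10 CPM or more in EA.hy926 and 3 in HMEC-1, with summed levels of 410 to 469 against 479 to 508 CPM. The pericyte marker RGS5 was at 430 ± 23.5 CPM in EA.hy926 and 5.05 ± 0.221 in HMEC-1, whereas the collagen gene COL1A1 was at 0.318 ± 0.0976 and 358 ± 9.28 CPM and COL1A2 at 0.0393 ± 0.0321 and 108 ± 1.80 CPM (SD, n = 5). Of the 6 tested on this list, 2 were called higher in EA.hy926 and 4 lower. Among those called lower was PDGFRB, at 0.931 ± 0.194 CPM in EA.hy926 and 23.1 ± 1.29 in HMEC-1. DCN and LUM were at 0 in every library. Of 5 blood markers none was at 10 CPM in either line. Over all genes tested, 19.1% were called higher in EA.hy926 and 16.4% lower. The part of these markers in the results below was not tested.

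The 147 lncRNAs took 0.551% to 0.567% of all counts in EA.hy926 (mean 0.557% ± 0.00627, SD, n = 5) and 0.352% to 0.355% in HMEC-1 (mean 0.354% ± 0.000899, SD, n = 5), so the share was higher in each EA.hy926 library than in any HMEC-1 library. All lncRNA genes together, without the 2 left out by the rule, took 0.818% to 0.842% and 0.575% to 0.585%. The counts were concentrated in few genes. The top 5 lncRNAs held 40% of them in EA.hy926 and 38.6% in HMEC-1, and the top 10 held 49.7% and 49.8%.

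**Figure D1:**
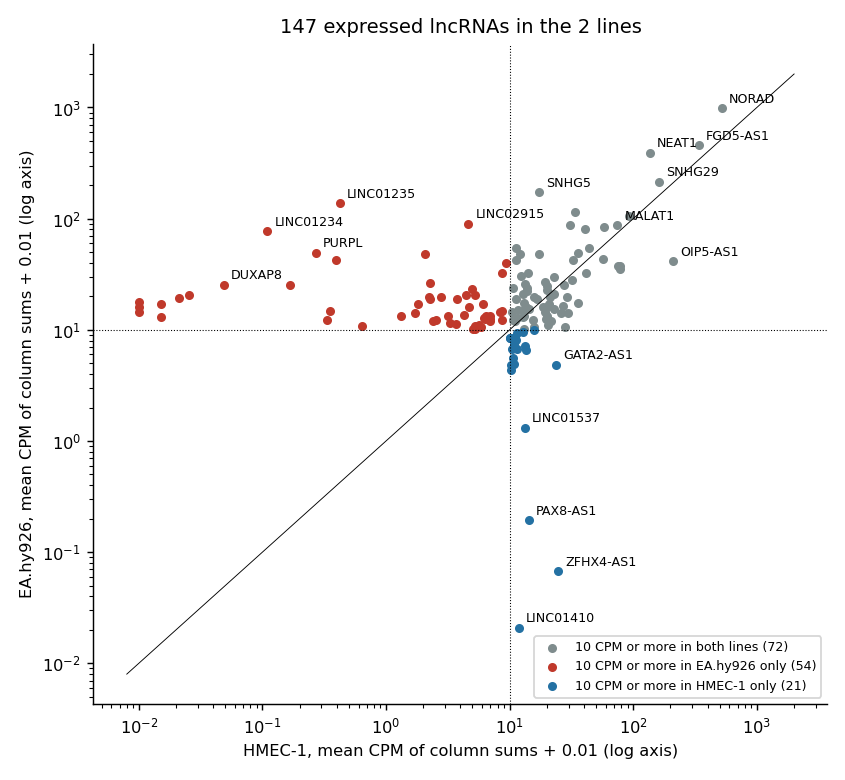
Mean level of each of the 147 lncRNAs in HMEC-1 (horizontal) and EA.hy926 (vertical), in CPM of the column sums plus 0.01 on log axes. Dotted lines mark the limit of 10 CPM and the diagonal marks equal levels; points left of the dotted vertical line (54, red) reach the limit in EA.hy926 alone, and those below the dotted horizontal line (21, blue) in HMEC-1 alone.

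The limit cut through a continuous range of levels. Just inside lay LINC01128 with a mean of 10.003 CPM of the column sum in HMEC-1, OLMALINC with 10.1 in EA.hy926 and FAM131B-AS2 with 10.1 in HMEC-1. Just outside lay NRSN2-AS1 with 9.995 and LINC00520 with 9.96 in EA.hy926, and MIR924HG with 9.95 in HMEC-1. Many of the genes at the limit in 1 line only were also not far below it in the other line. Of the 54 in EA.hy926 alone, 19 were at 5 to under 10 CPM in HMEC-1, 19 at 1 to under 5 CPM and 16 under 1 CPM. Of the 21 in HMEC-1 alone, 13, 5 and 3 fell into these ranges in EA.hy926.

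Compared per length of exons, NORAD, FGD5-AS1, PRR11-AS1, SNHG32 and SNHG29 were among the 10 highest in both lines. NORAD, an abundant cytoplasmic RNA that binds Pumilio proteins, is a gene with 5401 exon bases on chromosome 20 (36045618 to 36051018, minus strand, GRCh38). It stood at 1101, 1038, 1060, 984 and 1008 CPM in the 5 EA.hy926 libraries and at 493, 491, 499, 490 and 505 CPM in the 5 HMEC-1 libraries. The lines did not overlap, with a log2FC of 1.07 (SE 0.03, adjusted p = 4.4e-19). Scaled to the library totals alone the log2FC was 0.93, under the limit of 1. Per kb of exons NORAD had 192 ± 8.4 CPM in EA.hy926 and 91.7 ± 1.2 in HMEC-1 (SD, n = 5), the highest of all 147 in each line by this length. FGD5-AS1, a spliced RNA antisense to the endothelial guanine nucleotide exchange factor gene FGD5, came second in EA.hy926 with 79.3 ± 2.5 CPM per kb, and had 53.4 ± 0.54 in HMEC-1. The order depends on the gene model: PRR11-AS1, with 321 exon bases that all lie in exons of other genes, had 56.2 ± 4.6 and 61.7 ± 2.3 CPM per kb. When length was taken from the canonical transcript in place of all exons, a choice made after seeing the data, the 10 highest shared 5 genes with the first ranking in EA.hy926 and 6 in HMEC-1. SNHG29 and FGD5-AS1 then came ahead of NORAD in EA.hy926, and SNHG29, FGD5-AS1, GAS5 and ZFHX4-AS1 did so in HMEC-1.

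For the 72 lncRNAs at the limit in both lines the rule set no direction. An adjusted p under 0.05 was reached by 67 of them (93.1%), against 85.8% of all genes tested and 89.7% of protein-coding genes at the limit in both lines, with 44 higher and 23 lower in EA.hy926. The size limit was also passed by 14 higher and 3 lower (19.4% and 4.17%, or 23.6% in either direction), against 19.1% and 16.4% of all genes tested (35.5% in either direction). Of the 1866 lncRNA genes tested at any level, 32.9% were called higher and 17.9% lower (50.8% in either direction). Of the 8344 protein-coding genes at 10 CPM or more in both lines, 8.38% were called higher and 7.37% lower (15.7% in either direction). The median log2FC of the 72 was 0.32, with a range from -2.21 to 3.47, beside -0.01 over all genes tested and -0.04 over those protein-coding genes. Libraries of the lines did not overlap for 62 of the 72, with EA.hy926 higher for 42 and HMEC-1 higher for 20. Over all genes tested the libraries did not overlap for 77.4%, with EA.hy926 higher for 38.3% and HMEC-1 higher for 39.2%.

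The split between directions was sensitive to scaling. With library totals in place of TMM the median log2FC of all genes moved by -0.13, and the calls among the 72 became 11 higher and 7 lower, so that the lower share rose from 17.6% to 38.9%. Of the 3 lowest calls, ENSG00000261061 and ENSG00000187951 lie almost wholly in exons of other genes (100% and 99.1% of their exon bases), and their reads cannot be told from those genes in a count without strand. OIP5-AS1 was the third. At the other end of the range stood SNHG5, ENSG00000247903 (log2FC 2.41, SE 0.04, adjusted p = 3.4e-22), TRIM8-DT, SLC12A2-DT (2.05, SE 0.05, adjusted p = 2.4e-20) and SNHG7. The difference was nearest to 0 for CARD8-AS1, HAGLR, MIR22HG, PSMA3-AS1 and ENSG00000266469, whose log2FC ran from -0.08 to 0.03 with adjusted p from 0.16 to 0.76 and whose libraries overlapped between the lines.

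Among the snoRNA hosts, genes whose introns carry the guide RNAs for modification of ribosomal RNA and whose spliced exons are mostly short-lived, 16 of 31 matched genes of the list were expressed lncRNAs. The list was chosen with earlier results of these data known. Of the 16, 11 were at the limit in both lines, 4 in EA.hy926 alone and 1 in HMEC-1 alone. Among the 11, 3 were called higher in EA.hy926 and 0 lower, beside 19.1% and 16.4% of all genes tested. The direction of the other 5 was set by the rule. By position, 15 of the 147 lncRNAs (10.2%) contained an annotated snoRNA gene, against 0.478% of the lncRNA genes of the table. Of these 15, 10 were at the limit in both lines. GAS5 is not among the 15, because the annotation used here lists no snoRNA gene within it.

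SNHG5, the host of SNORD50 and a gene on chromosome 6 (85650491 to 85678932, minus strand), had the highest log2FC of the 72. Its level was 180, 200, 171, 175 and 183 CPM in EA.hy926 and 17.3, 17.0, 17.0, 15.7 and 15.3 CPM in HMEC-1. Each EA.hy926 library lay far above every HMEC-1 library, and the log2FC was 3.47 (SE 0.04, adjusted p = 2.4e-24). SNHG7 followed, at 121, 122, 118, 131 and 115 CPM against 33.4, 30.8, 33.6, 32.8 and 30.5 (log2FC 1.91, SE 0.04, adjusted p = 3.4e-21). SNHG14, the long precursor that holds 84 annotated snoRNA genes and runs antisense to UBE3A, was at 82.7 to 87.5 CPM in EA.hy926 against 37.7 to 40.1 in HMEC-1 (log2FC 1.13, SE 0.03, adjusted p = 3.4e-19). With library totals its log2FC was 0.99 and the call was lost.

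The other snoRNA hosts showed smaller differences and in both directions. GAS5, a host of many box C/D snoRNAs whose spliced form can bind the glucocorticoid receptor, was at 112, 111, 105, 110 and 110 CPM in EA.hy926 and at 89.5, 90.8, 83.3, 89.0 and 86.6 in HMEC-1. The lines did not overlap, but the difference was small, with a log2FC of 0.32 (SE 0.03, adjusted p = 1.1e-09). SNHG1, which holds 7 annotated snoRNA genes, went the other way, at 34.0, 38.4, 39.4, 43.8 and 39.5 CPM against 72.6, 73.4, 68.1, 73.7 and 69.4 (log2FC -0.87, SE 0.05, adjusted p = 1.4e-13). With library totals SNHG1 passed the size limit, at -1.01. SNHG29, SNHG32, SNHG16, DANCR and SNHG6 had log2FC from 0.32 to 0.82, and SNHG3 had -0.42. Of the hosts at the limit in EA.hy926 alone, SNHG17 was at 42 ± 1.41 CPM there and 8.98 ± 0.348 in HMEC-1 (SD, n = 5). The snoRNAs themselves are too short and lack the tail needed to be measured in these libraries.

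**Figure D2:**
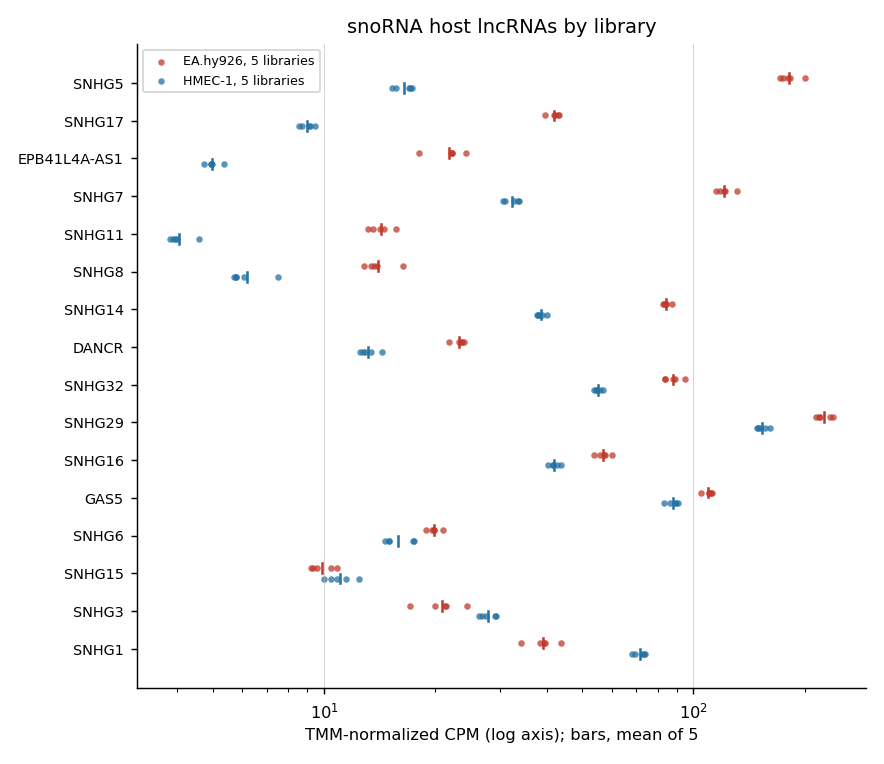
Levels of the 16 expressed snoRNA host lncRNAs in each library, in TMM-normalized CPM on a log axis, with EA.hy926 in red, HMEC-1 in blue and vertical bars at the mean of 5. SNHG5 at the top shows the widest separation (171 to 200 against 15.3 to 17.3 CPM), while SNHG15, SNHG3 and SNHG1 at the bottom had higher means in HMEC-1.

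Of the cytoplasmic decoys and scaffolds, 7 of 14 matched genes of the list were expressed lncRNAs, 6 of them at the limit in both lines. Of these 6, 1 was called higher (NORAD) and 1 lower (OIP5-AS1), beside 19.1% and 16.4% of all genes tested. OIP5-AS1, known as cyrano and carrying a conserved site for miR-7, was the expressed lncRNA with the lowest log2FC of the 72. It was at 45.3, 42.4, 44.4, 42.6 and 41.2 CPM in EA.hy926 and at 198, 194, 202, 199 and 207 CPM in HMEC-1. The lines lay far apart with little spread within each, and the log2FC was -2.21 (SE 0.03, adjusted p = 7.2e-24). MIR4435-2HG and CYTOR, near-identical copies on chromosome 2 whose reads may be split between them, were both higher in HMEC-1, with log2FC of -0.92 (SE 0.05, adjusted p = 4.4e-14) and, for CYTOR at the limit in HMEC-1 alone, -0.80. MIR4435-2HG passed the size limit with library totals, at -1.05. CHASERR, transcribed upstream of the chromatin remodeller gene CHD2, differed little (log2FC 0.24, SE 0.05, adjusted p = 0.00013).

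On the nuclear and chromatin-linked list, 5 of 16 matched genes were expressed lncRNAs, all in both lines. Of these 5, 1 was called higher (NEAT1) and 0 lower, beside 19.1% and 16.4% of all genes tested. TUG1, at 82.2 CPM in EA.hy926 and 101 in HMEC-1, is typed as protein-coding and could not be taken by the rule. NEAT1, the gene of the RNA on which paraspeckles are built, was at 389, 447, 402, 412 and 404 CPM in EA.hy926 and at 132, 131, 127, 135 and 123 CPM in HMEC-1. Every EA.hy926 library was above every HMEC-1 library, and the log2FC was 1.66 (SE 0.03, adjusted p = 9.7e-21). The counts of NEAT1 and MALAT1 do not separate transcript forms, and any form without a poly(A) tail was sampled poorly at best. The level of the scaffold form itself was therefore not measured. MALAT1, which is concentrated in nuclear speckles and is among the best known endothelial lncRNAs, was at 87.4, 98.7, 90.3, 90.5 and 90.4 CPM against 70.5, 70.9, 65.8, 73.0 and 74.1. The lines did not overlap, with a log2FC of 0.37 (SE 0.04, adjusted p = 3.7e-09). MALAT1 had 8.77 ± 0.41 CPM per kb in EA.hy926 and 6.79 ± 0.31 in HMEC-1, but 83.7% of its exon bases are also exons of other annotated genes, where a count without strand cannot assign reads to 1 gene. HAGLR, in the HOXD cluster, was at 25 to 28.3 CPM in EA.hy926 against 25.4 to 27.1 in HMEC-1, with overlapping libraries (log2FC 0.02, SE 0.04, adjusted p = 0.60). CRNDE and JPX had log2FC of 0.25 and -0.43.

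The genes for paraspeckle proteins had smaller differences than NEAT1. Of 14 genes on that list, 0 were called higher and 1 lower, beside 19.1% and 16.4% of all genes tested. All lay at 10 CPM or more in both lines, and their log2FC ran from -1.45 to 0.43 with a median of -0.21. The core paraspeckle protein gene NONO had a log2FC of 0.38 (SE 0.02, adjusted p = 1e-12) and its partner SFPQ one of -0.12 (SE 0.03, adjusted p = 0.00048). The gene called lower was SMARCA4, a chromatin remodelling ATPase, at 72.7 ± 3.71 CPM in EA.hy926 and 199 ± 8.07 in HMEC-1 (SD, n = 5). Among the genes of RNA turnover, UPF3A of nonsense-mediated decay (log2FC -1.42, SE 0.04, adjusted p = 2.3e-19) and the exosome subunit genes EXOSC3, EXOSC8 and EXOSC9 (log2FC -1.10, -1.20 and -1.29) were called lower, of 14 and 16 genes tested on these lists, beside 16.4% of all genes tested. None was called higher, though UPF3B had a log2FC of 0.80 (SE 0.04, adjusted p = 1.6e-14) and EXOSC4 one of 0.75 (SE 0.12, adjusted p = 7e-06). The 9 genes for snoRNP proteins held no call, with log2FC from -0.34 to 0.74.

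Hosts of miRNAs made up 8 of the expressed lncRNAs on their list, of which 4 were at the limit in both lines. Of these 4, 1 was called higher in EA.hy926 and 0 lower, beside 19.1% and 16.4% of all genes tested. By position, 12 of the 147 contained an annotated miRNA gene. Some of the mature miRNAs, in the RefSeq sequences of GRCh38.p14, are printed as examples, among them those of hosts that share a seed. Other hosts, such as DANCR, MIR1915HG and PVT1, are not shown. The seed (bases 2 to 8, in capitals) sets which mRNAs a miRNA can pair with. The miRNAs themselves were not measured here.
hsa-miR-100-5p (in MIR100HG): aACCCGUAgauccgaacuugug
hsa-miR-99a-5p (in MIR99AHG): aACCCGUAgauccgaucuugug
hsa-let-7a-5p (in MIR100HG): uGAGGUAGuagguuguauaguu
hsa-let-7c-5p (in MIR99AHG): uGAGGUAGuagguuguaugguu
hsa-miR-125b-5p (in MIR100HG): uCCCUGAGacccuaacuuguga
hsa-miR-137-3p (in MIR137HG): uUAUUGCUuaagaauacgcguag
hsa-miR-503-5p (in MIR503HG): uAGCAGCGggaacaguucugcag
hsa-miR-4435 (in MIR4435-2HG): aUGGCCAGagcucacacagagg

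MIR100HG and MIR99AHG, hosts of parallel miRNA clusters, both carry the seeds ACCCGUA and GAGGUAG. MIR100HG, on chromosome 11 (122028325 to 122556721, minus strand), was at 29.2, 34.8, 32.2, 31.5 and 30.5 CPM in EA.hy926 and at 12.2, 11.2, 12.0, 11.7 and 11.5 CPM in HMEC-1, without overlap (log2FC 1.43, SE 0.05, adjusted p = 6.7e-17). MIR99AHG, at the limit in EA.hy926 alone, was at 13.7 to 16.9 CPM there and at 7.63 to 8.29 in HMEC-1. MIR137HG was at 17.5 to 18.8 CPM in EA.hy926 against 1.43 to 2.02 in HMEC-1. MIR503HG, the host of miR-503 on the X chromosome, was at 4.03, 5.39, 5.29, 6.4 and 4.85 CPM in EA.hy926 and at 10.4, 10.1, 11.0, 10.3 and 9.52 in HMEC-1, where alone it met the limit. The same mature miR-4435 lies in MIR4435-2HG and in CYTOR. MIR22HG did not differ beyond the spread between libraries (log2FC 0.03, SE 0.06, adjusted p = 0.66), and MIR1915HG had a log2FC of 0.15 (SE 0.06, adjusted p = 0.016).

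Of 17 matched genes with a known link to endothelium, 4 were expressed lncRNAs, MALAT1, SENCR, PCAT19 and MIR503HG. Their log2FC took both signs, and the 2 of them in both lines, MALAT1 and PCAT19, were not called. SPAAR (0.296 CPM in EA.hy926 against 19.1 in HMEC-1) and NRON (0 in both lines) are not typed as lncRNA and could not be taken by the rule. SENCR, transcribed antisense to the endothelial transcription factor gene FLI1, was at the limit in EA.hy926 alone, with 19.2, 20.1, 18.8, 16.5 and 15.3 CPM. In HMEC-1 it was at 6.47, 6.83, 5.94, 5.15 and 4.81 CPM. FLI1 itself was at 186 ± 3.8 and 128 ± 4.16 CPM (SD, n = 5). PCAT19, an RNA enriched in endothelial cells, was at 12.4, 15.1, 15.8, 16.3 and 13.8 CPM in EA.hy926 and at 28.6, 30.7, 26.4, 27.4 and 27.9 in HMEC-1. The lines did not overlap and the log2FC was -0.94 (SE 0.06, adjusted p = 5.9e-12), which passed the size limit with library totals at -1.07. GATA2-AS1, which starts 3989 bases from the start of the endothelial factor gene GATA2, was at 4.66 to 5.44 CPM in EA.hy926 against 21.9 to 22.9 in HMEC-1, where alone it met the limit.

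Of 18 matched stress and interferon lncRNAs 7 were expressed, 4 of them in both lines. Among these 4, 1 was called higher (NEAT1) and 0 lower, beside 19.1% and 16.4% of all genes tested. Of 25 matched tumour-linked lncRNAs 5 were expressed, with only CRNDE in both lines, where it was not called (log2FC 0.25, SE 0.07, adjusted p = 0.002). Genes of these lists below the limit went both ways. CASC9 (4.76 CPM in EA.hy926 against 0 in HMEC-1) and PCAT7 (1.96 against 0) were called higher in EA.hy926. LINC01133 (0.00539 against 4.68), CDKN2B-AS1 (0 against 1.21) and HOTAIR (0.0109 against 0.771) were called lower. In each of these 1 line was at or near 0, so the size of the log2FC is not a measured one. PURPL, a p53-regulated RNA, was at 47.6, 57.3, 52.1, 50.1 and 50.6 CPM in EA.hy926 and at 0.342, 0.269, 0.282, 0.27 and 0.0784 CPM in HMEC-1, where 3 to 13 counts were behind each value. PINCR, another RNA induced by p53, was at 42.7 to 46.9 CPM against 0.152 to 0.575. PVT1, the neighbour of MYC, had 12.3 to 15.5 CPM against 5.59 to 7.52. HCG18, from the major histocompatibility region, was the one of these lists at the limit in both lines with a negative log2FC, -0.72 (SE 0.05, adjusted p = 1.4e-11).

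The 54 lncRNAs at the limit in EA.hy926 alone had a median log2FC of 2.44 (0.65 to 12.48), a direction that the rule set. In 7 of them every HMEC-1 library held 3 counts or fewer. LINC02577, LINC02864 and ENSG00000253500 had no count in any HMEC-1 library, while EA.hy926 held 17.6 to 19.4, 15.1 to 17.7 and 14 to 15.5 CPM. Set against a floor of 3 counts per library, they were at least 218-fold, 195-fold and 176-fold higher in EA.hy926. LINC00958, LINC02725 and CCDC144NL-AS1 were at least 250-fold, 237-fold and 210-fold higher by the same floor.

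The lncRNAs with the largest measured difference had few counts in HMEC-1 but not none. LINC01234, on chromosome 12 (113583886 to 113773726, minus strand), was at 83.3, 85.9, 78.9, 77.2 and 77.6 CPM in EA.hy926 and at 0.0285, 0.171, 0.173, 0.0245 and 0.0784 in HMEC-1, the latter from 1 to 8 counts. LINC01235 was the most abundant lncRNA of EA.hy926 alone, at 144, 145, 140, 143 and 145 CPM. In HMEC-1 it was at 0.427, 0.343, 0.433, 0.343 and 0.418 CPM, so its 5 EA.hy926 values were close to each other and far above those of HMEC-1. DUXAP8, a transcribed pseudogene with near-identical copies elsewhere in the genome among which reads could be split, was at 25.5 to 27.7 CPM against 0 to 0.131. LINC02915 was at 90.9 to 99.3 CPM against 4.19 to 4.63.

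The 21 lncRNAs at the limit in HMEC-1 alone had a median log2FC of -0.78 (-9.62 to -0.12), again a direction set by the rule, and for 3 of them the libraries of the lines overlapped. ZFHX4-AS1 was at 23.3, 25.9, 24.4, 22.4 and 22.3 CPM in HMEC-1 and at 0.108, 0.0301, 0.0569, 0 and 0.108 in EA.hy926, the latter from 0 to 4 counts. LINC01410 was at 10.3 to 12.0 CPM in HMEC-1 and held at most 2 counts in an EA.hy926 library, which puts the HMEC-1 level at least 125-fold higher. PAX8-AS1 was at 14.2, 13.8, 14.4, 13.2 and 12.8 CPM against 0.243, 0.151, 0.114, 0.234 and 0.215. LINC01537, on chromosome 11 (72570660 to 72573229, plus strand), was at 11.8 to 13.6 CPM against 1.27 to 1.49. ENSG00000270504, which starts 602 bases from PXDC1, was at 8.84 to 10.6 against 4.11 to 5.20 CPM.

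**Figure D3:**
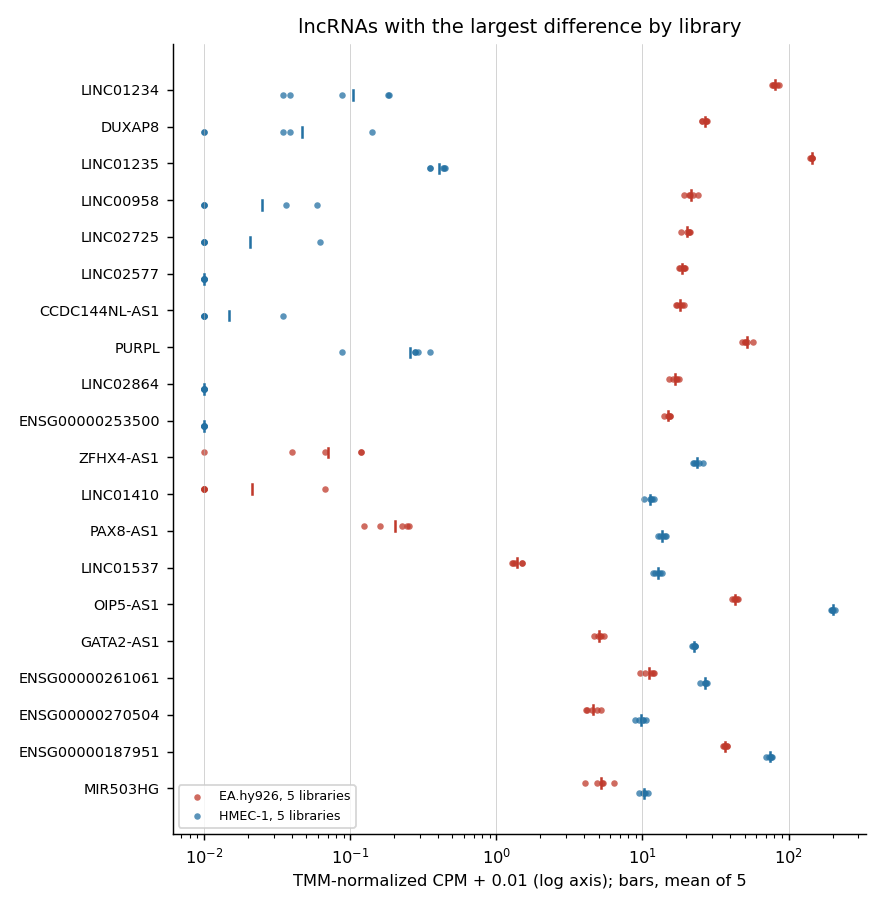
Levels in each library of the 10 lncRNAs with the largest difference toward EA.hy926 (top) and toward HMEC-1 (bottom), in TMM-normalized CPM plus 0.01 on a log axis, with EA.hy926 in red, HMEC-1 in blue and vertical bars at the mean of 5. Points at the left edge are libraries with no count; the top 10 lie at 14 CPM or more in EA.hy926 and at 0.433 CPM or less in HMEC-1.

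The expressed lncRNAs differed from other lncRNA genes in build and, in part, in position. Their exons covered a median of 5120 bases, against 877 for the lncRNA genes of the table. Their canonical transcript had a median of 3 exons, against 2. The limit was set on counts not scaled to length, so the rule itself favours genes with more exon bases. Relative to protein-coding genes, 64 lay antisense and overlapping and 16 divergent within 1000 bases of a coding start. A further 12 lay in the sense of an overlapping gene and 55 between genes. These were 43.5%, 10.9%, 8.16% and 37.4% of the expressed lncRNAs, against 38.9%, 6.84%, 9.06% and 45.2% of the lncRNA genes of the table. A coding start within 1000 bases on the other strand was found for 20.4% of the expressed lncRNAs. For the lncRNA genes of the table it was 11.2%. Of the 72 in both lines 23.6% lay between genes, of the 54 in EA.hy926 alone 53.7% and of the 21 in HMEC-1 alone 42.9%. The 45.2% of the table's lncRNA genes lay nearer to the shares for EA.hy926 alone and HMEC-1 alone than to that for both lines. Replicates of the lncRNAs had a higher median coefficient of variation than those of protein-coding genes of like level. At 16.3 to 39.1 CPM it was 6.11% for 36 lncRNAs and 4.76% for 2412 protein-coding genes in EA.hy926, and 4.83% and 4.07% in HMEC-1. ENSG00000281181 varied most among the 10 highest per kb in HMEC-1, at 14.4, 22.2, 24.8, 43.9 and 23.2 CPM there.

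A neighbouring or overlapping protein-coding gene was tested for 113 of the 147. The lncRNA and this gene had log2FC of the same sign in 68 of the 113 pairs (60.2%), with r = 0.36 and rho = 0.51 across pairs. Both values of a pair come from the same 10 libraries, and overlapping pairs share reads. For other tested lncRNAs the share was 68.2% of 1457 pairs with r = 0.53 and rho = 0.49. For the 28 pairs that started within 1000 bases of each other on opposite strands r was 0.65 and rho 0.53, with the same sign in 64.3%. For other tested lncRNAs in this position r was 0.78 and rho 0.54, with the same sign in 68.7% of 447 pairs. In the 22 pairs over 100000 bases apart r was 0.03 and rho 0.16. In the 58 pairs whose lncRNA was at the limit in both lines, where the rule set no sign, 28 (48.3%) had the same sign, with r = 0.37 and rho = 0.25.

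Several pairs had log2FC of the same sign, and they are given as examples only. MAN1B1-DT, SLC20A1-DT and GATA2-AS1 were at the limit in 1 line only, so the rule set the sign of these lncRNAs. MAN1B1-DT and SLC20A1-DT were also picked after their values were seen. MAN1B1-DT and the mannosidase gene MAN1B1 start 40 bases apart, and their log2FC were 1.95 and 1.24. SLC20A1-DT starts 219 bases from the phosphate transporter gene SLC20A1, with log2FC of 2.34 and 1.67. OIP5-AS1 and OIP5, 48633 bases apart by their starts, had -2.21 and -2.16, and GATA2-AS1 and GATA2 had -2.15 and -1.03. Exceptions were as clear. SNHG1 starts 51 bases from SLC3A2, the heavy chain gene of amino acid transporters, but SLC3A2 stood at 113 ± 6.54 CPM in EA.hy926 and 114 ± 2.77 in HMEC-1 (SD, n = 5; log2FC -0.01, SE 0.03, adjusted p = 0.70). LINC01235 had a log2FC of 8.50 and its nearest tested coding gene MPDZ, 208433 bases away, one of -3.71. TRIM8-DT and TRIM8 had 2.13 and 2.19, but all exon bases of TRIM8-DT lie within exons of other genes, so this pair cannot be told apart by counts without strand.

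**Figure D4:**
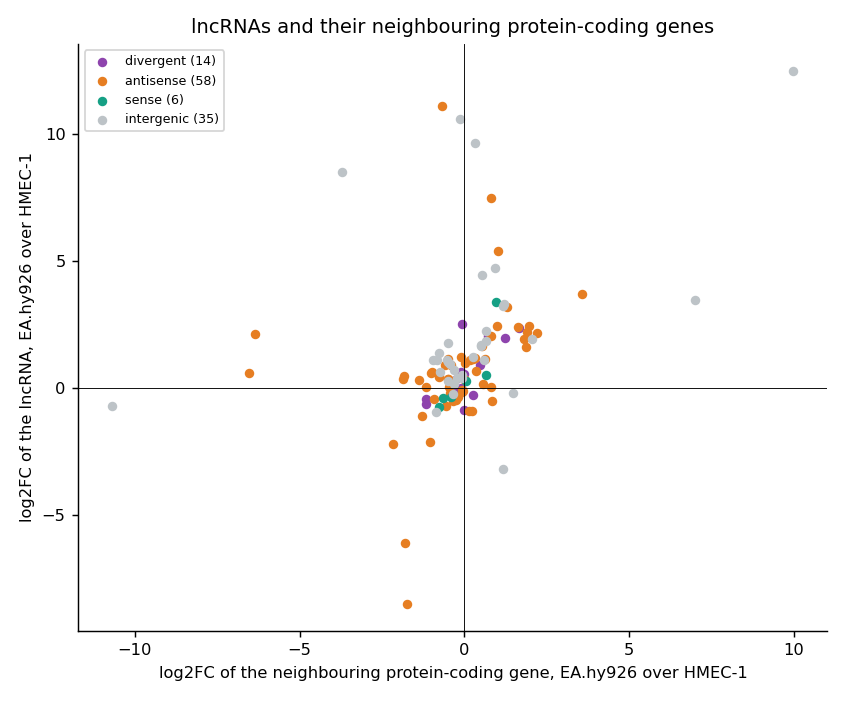
Log2FC of each lncRNA (vertical) and of its neighbouring protein-coding gene (horizontal), EA.hy926 over HMEC-1, for 113 pairs coloured by their relative position. In the divergent pairs (14, purple) the log2FC of the lncRNA is at most 2.49, and the point in the far upper right is the pair of LINC02577 and PIK3CG (12.48 and 9.98).

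The DNA at the transcript start also differed between the groups of lncRNAs, a feature the rule did not use and which is given as a description with no test. In the 300 bases from 250 before to 50 after the canonical start, the ratio of CpG dinucleotides observed to those expected from base content had a median of 0.79 for the 72 in both lines, 0.40 for the 54 in EA.hy926 alone and 0.57 for the 21 in HMEC-1 alone. It was 0.28 for the 13865 lncRNA genes of the table outside the group, and 0.88 for protein-coding genes at the limit in both lines. A ratio over 0.6 was found in 47 of the 72 (65.3%) and in 26 of the 75 at the limit in 1 line only (34.7%), of which only 3 were among the 19 with under 1 CPM in the other line. Protein-coding genes showed a smaller gap in this direction, with 93.1% of those at the limit in both lines and 77.4% of those in 1 line only.

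A start near a coding start can share its CpG island, and the part of such sharing in the gap was not tested. Some lncRNAs had a neighbouring gene that did not start within 1000 bases on the other strand. Of these, 58.5% of 53 in both lines and 28.1% of 64 in 1 line only had a ratio over 0.6. Coding starts on the same strand were not looked for. The windows of 3 lncRNAs in both lines, chosen as the most abundant, the highest and the lowest in log2FC, show many CpG (in capitals; GRCh38, 5′ to 3′ in the direction of transcription): NORAD at chr20:36050969-36051268 (minus strand), SNHG5 at chr6:85678699-85678998 (minus strand), OIP5-AS1 at chr15:41283747-41284046 (plus strand).
NORAD: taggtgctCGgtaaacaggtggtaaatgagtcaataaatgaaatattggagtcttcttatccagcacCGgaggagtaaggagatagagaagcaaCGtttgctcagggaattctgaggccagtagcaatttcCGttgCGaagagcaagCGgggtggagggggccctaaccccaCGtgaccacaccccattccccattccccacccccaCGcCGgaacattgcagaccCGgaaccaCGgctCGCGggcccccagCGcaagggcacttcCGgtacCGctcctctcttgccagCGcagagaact
SNHG5: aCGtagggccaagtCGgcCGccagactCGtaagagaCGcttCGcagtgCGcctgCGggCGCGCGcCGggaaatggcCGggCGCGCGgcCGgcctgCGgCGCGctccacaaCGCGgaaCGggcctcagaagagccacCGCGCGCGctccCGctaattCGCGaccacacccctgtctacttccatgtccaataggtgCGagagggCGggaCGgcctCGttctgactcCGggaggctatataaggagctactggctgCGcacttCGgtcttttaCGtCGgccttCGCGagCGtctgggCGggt
OIP5-AS1: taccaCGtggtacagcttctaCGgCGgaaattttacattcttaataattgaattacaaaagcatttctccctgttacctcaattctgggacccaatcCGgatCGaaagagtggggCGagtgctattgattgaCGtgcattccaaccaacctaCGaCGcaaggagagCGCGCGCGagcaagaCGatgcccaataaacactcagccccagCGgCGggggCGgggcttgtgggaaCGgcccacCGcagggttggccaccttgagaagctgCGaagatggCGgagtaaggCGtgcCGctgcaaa

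The NORAD window held 17 CpG (ratio 0.70), that of SNHG5 43 (1.25) and that of OIP5-AS1 23 (1.03). The windows of 4 lncRNAs in 1 line only, LINC01234 at chr12:113773637-113773936 (minus strand), LINC01235 at chr9:13488076-13488375 (minus strand), PAX8-AS1 at chr2:113235286-113235585 (plus strand), LINC01537 at chr11:72570410-72570709 (plus strand), are printed as examples that were chosen after values were seen, so their CpG content supports nothing about the groups.
LINC01234: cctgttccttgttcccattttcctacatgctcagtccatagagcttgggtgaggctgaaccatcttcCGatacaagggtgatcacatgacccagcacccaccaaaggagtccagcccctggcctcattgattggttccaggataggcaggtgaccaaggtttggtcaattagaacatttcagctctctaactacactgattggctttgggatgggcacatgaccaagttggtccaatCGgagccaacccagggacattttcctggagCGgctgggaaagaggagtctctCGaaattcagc
LINC01235: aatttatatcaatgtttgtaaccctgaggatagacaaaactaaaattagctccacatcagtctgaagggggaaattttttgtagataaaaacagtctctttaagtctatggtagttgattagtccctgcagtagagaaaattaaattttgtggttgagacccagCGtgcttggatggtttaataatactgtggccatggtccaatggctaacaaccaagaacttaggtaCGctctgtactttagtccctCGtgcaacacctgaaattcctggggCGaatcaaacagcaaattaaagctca
PAX8-AS1: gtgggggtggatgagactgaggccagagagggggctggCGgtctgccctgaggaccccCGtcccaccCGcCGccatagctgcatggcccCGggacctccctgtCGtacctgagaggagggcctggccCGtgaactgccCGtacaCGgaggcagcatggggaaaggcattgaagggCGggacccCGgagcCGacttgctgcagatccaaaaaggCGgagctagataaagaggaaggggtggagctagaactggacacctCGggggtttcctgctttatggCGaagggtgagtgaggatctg
LINC01537: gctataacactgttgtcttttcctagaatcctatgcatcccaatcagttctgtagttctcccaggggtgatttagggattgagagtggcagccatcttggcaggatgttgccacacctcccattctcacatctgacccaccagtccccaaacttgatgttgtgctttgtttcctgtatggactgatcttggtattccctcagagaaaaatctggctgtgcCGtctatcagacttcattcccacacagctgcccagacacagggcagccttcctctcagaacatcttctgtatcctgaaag

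LINC01234 and LINC01235 held 4 CpG each (ratios 0.20 and 0.35), and LINC01537 held 1 (0.06). PAX8-AS1 held 15 (0.51). Other lncRNAs in HMEC-1 alone had higher ratios, with 0.68 for ZFHX4-AS1 and 1.05 for GATA2-AS1, and LINC01410 had 0.42. Short motifs were counted on both strands of the same windows. The GC box letters GGGCGG, which overlap CpG content, were found in 52.8% of the 72, in 35.2% of the 54 and in 21.0% of other lncRNA genes, against 61.7% of all protein-coding genes. The ETS letters CCGGAAG were found in 18.1%, 5.56% and 4.41%, against 14.1%. The AP-1 letters TGANTCA were found in 6.94%, 16.7% and 9.92%, against 5.39%, and the glucocorticoid element letters ACANNNTGT in 1.39%, 9.26% and 7.34%, against 3.69%. In the 21 lncRNAs in HMEC-1 alone the GC box letters were found in 57.1%, the ETS letters in 4.76%, the AP-1 letters in 14.3% and the glucocorticoid element letters in 0%. Such matches describe the letters only.

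**Figure D5:**
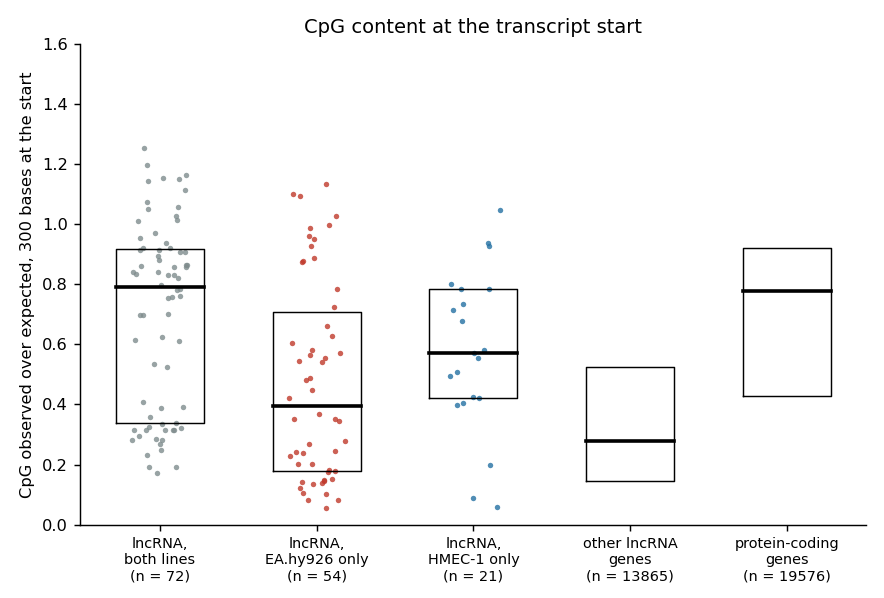
Ratio of observed to expected CpG in the 300 bases at the canonical transcript start, for the expressed lncRNAs by the line in which they met the limit, for other lncRNA genes and for protein-coding genes. Points are single lncRNAs, thick lines medians and boxes run from the 25th to the 75th percentile; the medians are 0.79, 0.40, 0.57, 0.28 and 0.78 from left to right.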

How the data were processed

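Untreated EA.hy926 cells (5 replicates) and HMEC-1 cells (5 replicates) gave poly(A)-selected RNA libraries, sequenced on an Illumina NovaSeq. The authors trimmed the reads and aligned them to GRCh38 with HISAT2. They deposited a table of raw counts per Ensembl gene; the submitters' processing notes name fastp, featureCounts and DESeq2, while the study's methods name HTSeq, and the annotation release and strand setting are not given in the sources used here. Counts from overlapping genes may therefore be dropped or shared. The members and gene lists were chosen with earlier results of these data known.

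From the counts, levels were computed as CPM of the column sum for membership and as TMM-scaled CPM elsewhere (edgeR 4.0.16, R 4.3.3). Genes passing filterByExpr (minimum count 10, minimum total 15) were fitted with glmQLFit and tested with glmQLFTest across all 16310 genes, without covariates; SE was the absolute log2FC over the square root of F. A call required both an absolute log2FC over 1 and, after Benjamini-Hochberg adjustment, p under 0.05. The test was checked on simulated counts with known changes. Alternatives were DESeq2 1.42.0, limma-voom 3.58.1, other scalings and filters, a replicate block and leaving out each library. Named genes were those of the role lists, the 10 highest per kb and the 10 with the largest fold in each direction, of those in both lines the 5 highest, 5 lowest and 5 nearest 0 in log2FC, the 3 on each side of the limit, and neighbours set beside a named gene; MAN1B1-DT and SLC20A1-DT were added after their values were seen. Of the table's genes 56434 matched GENCODE 44, which gave types, exons and starts. Per-kb levels used the union of exons. Intervals and floors (3 counts) cover counting error only.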

Additional observations from a re-analysis of the deposited data

Results flagged for a closer look

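In 10 of 135 sets of 5 libraries examined, 1 library stood apart from the other 4 by Dixon's ratio, where chance flags about 1 in 20. In HMEC-1, SNHG8 was at 7.52 CPM in replicate 2 and 5.70 to 6.07 in the others, and SNHG11 at 4.58 in replicate 2 and 3.82 to 3.99 in the others. PURPL was at 0.0784 CPM in HMEC-1 replicate 5, from 3 counts, and at 0.269 to 0.342 in the others. In EA.hy926, MALAT1 was highest in replicate 2 at 98.7 CPM (87.4 to 90.5 in the others), MIR137HG in replicate 5 at 18.8 (17.5 to 17.8), and GAS5 was lowest in replicate 3 at 105 (110 to 112). The other 4 rest on 1 to 5 counts in a single library: CCDC144NL-AS1 at 0.0245 CPM in HMEC-1 replicate 4, DUXAP8 at 0.131 and LINC02725 at 0.0523 in HMEC-1 replicate 5, and LINC01410 at 0.0569 in EA.hy926 replicate 3.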

How the results depend on the processing

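The 14 higher and 3 lower calls among the 72 lncRNAs in both lines were the same 17 genes with DESeq2, limma-voom, DESeq2-type scaling factors, the low-count filter removed or set to 10 counts in each library, and a replicate block (14 and 3). Same-numbered replicates of the lines did not deviate together (correlations from -0.023 to 0.039), so the numbers were not taken to pair them. Leaving out single libraries gave 14 higher in each case and 2 to 3 lower, ENSG00000187951 being lost without EA.hy926 replicate 1. With library totals 11 were higher and 7 lower, and 14 of the 17 calls were kept. Without lncRNAs with most exon bases in other genes' exons, 1 was lower. Taking lncRNAs by a mean of at least 10 CPM over all 10 libraries gave 36 higher and 5 lower of 103. These 103 include genes at the limit in 1 line only, whose direction the rule set. Over all genes tested 19.1% were called higher and 16.4% lower. Without the fold limit the 72 gave 44 and 23. With CPM on TMM-scaled library sizes there were 149 expressed lncRNAs (73 in both lines, 62 in EA.hy926 alone, 14 in HMEC-1 alone). With a limit of 5 CPM there were 281 expressed lncRNAs (141 in both lines, 102 in EA.hy926 alone, 38 in HMEC-1 alone), and with a limit of 20 CPM there were 67, with 24 and 29 in the first 2 groups. The sign turned for lncRNAs near 0: CARD8-AS1 at -0.01 without the filter, -0.12 with library totals and -0.02 to 0.04 without single libraries, HAGLR at -0.11 with library totals and -0.0 to 0.05 without single libraries, and MIR22HG at -0.11 with library totals and -0.02 to 0.07 without single libraries. Of 1160 refitted log2FC of 69 named lncRNAs, 8 changed sign, 18 were rated weaker, 6 stronger and 1128 the same. A log2FC rated the same could still cross the size limit, as for NORAD (0.93) and SNHG14 (0.99) with library totals.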
